A study of Mus musculus with 8 samples.

Results

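Hyaluronan is a long sugar polymer of the extracellular matrix, and 8 genes that make it, bind it or break it down were followed in cultured mouse fibro-adipogenic progenitors (FAPs) given melatonin or vehicle. The genes are Has1 and Has2 (synthesis), Cd44, Vcan and Tnfaip6 (binding), and Cemip, Hyal1 and Hyal2 (turnover). They were chosen by name, with earlier results of these data known. All 8 were found among the 20781 genes of the deposited count table by matching Ensembl IDs to symbols in GENCODE M21. FAPs are resident mesenchymal cells of muscle, able to form fat cells or fibroblasts that lay down matrix. The cells of both groups came from quadriceps, gastrocnemius and tibialis anterior that had not been injured, in male wild-type mice of strain C57BL/6 in the sample labels and C57BL/6J in the design text. They were kept for 48 h and then received melatonin for 24 h (4 libraries) or vehicle for 24 h (4 libraries). The labels state no age and no melatonin dose, and the RNA protocol names longissimus dorsi instead, which was not resolved. The labels call the replicates biological but do not say whether each is a separate animal, so p-values measure the spread between these libraries.

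Hyaluronan is assembled at the plasma membrane by hyaluronan synthases from UDP-glucuronic acid and UDP-N-acetylglucosamine and is extruded outside the cell, where it is not attached to a core protein. Cells hold it through the receptor CD44, and matrix proteins such as versican and TSG-6 join it into larger networks. It is cut by hyaluronidases and by CEMIP (also called HYBID or KIAA1199), and in injured skeletal muscle hyaluronan around muscle stem cells is known to accompany repair.

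With melatonin, 5 of the 8 genes fell and none rose. The fall was 5.44-fold for the synthase gene Has1, 2.41-fold for the receptor gene Cd44, 2.13-fold for the proteoglycan gene Vcan, 1.61-fold for the depolymerizing gene Cemip and 1.36-fold for the synthase gene Has2. Tnfaip6, Hyal1 and Hyal2 did not pass the test (edgeR's quasi-likelihood test, Benjamini-Hochberg adjusted over 16565 tested genes, threshold 0.05). In that comparison 36.5% of all tested genes passed, 18.5% of them lower and 18.1% higher as shares of all tested genes. These are 2992 genes higher and 3062 lower; scaling by library totals instead gave 5099 and 2237. In these 5 genes every melatonin library lay below every vehicle library, which held for 19.2% of all tested genes. All 5 also passed at an adjusted p under 0.01, as did 23.3% of tested genes (12.7% lower), and Has1, Cd44 and Vcan fell at least 2-fold, as did 7.23%. The same 5 genes passed as lower with limma-voom (36.8% of tested genes passed in either direction) and with DESeq2 (39.4%), where Hyal2 also passed as higher. The median log2 fold change, melatonin over vehicle, was -0.56 over the 8 genes and 0.01 over all tested genes. Because the 8 genes were chosen with earlier results known, their counts are not an unbiased sample beside those of all genes. In bulk RNA, fewer cells of a type and less RNA per cell cannot be told apart.

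**Figure D1:**
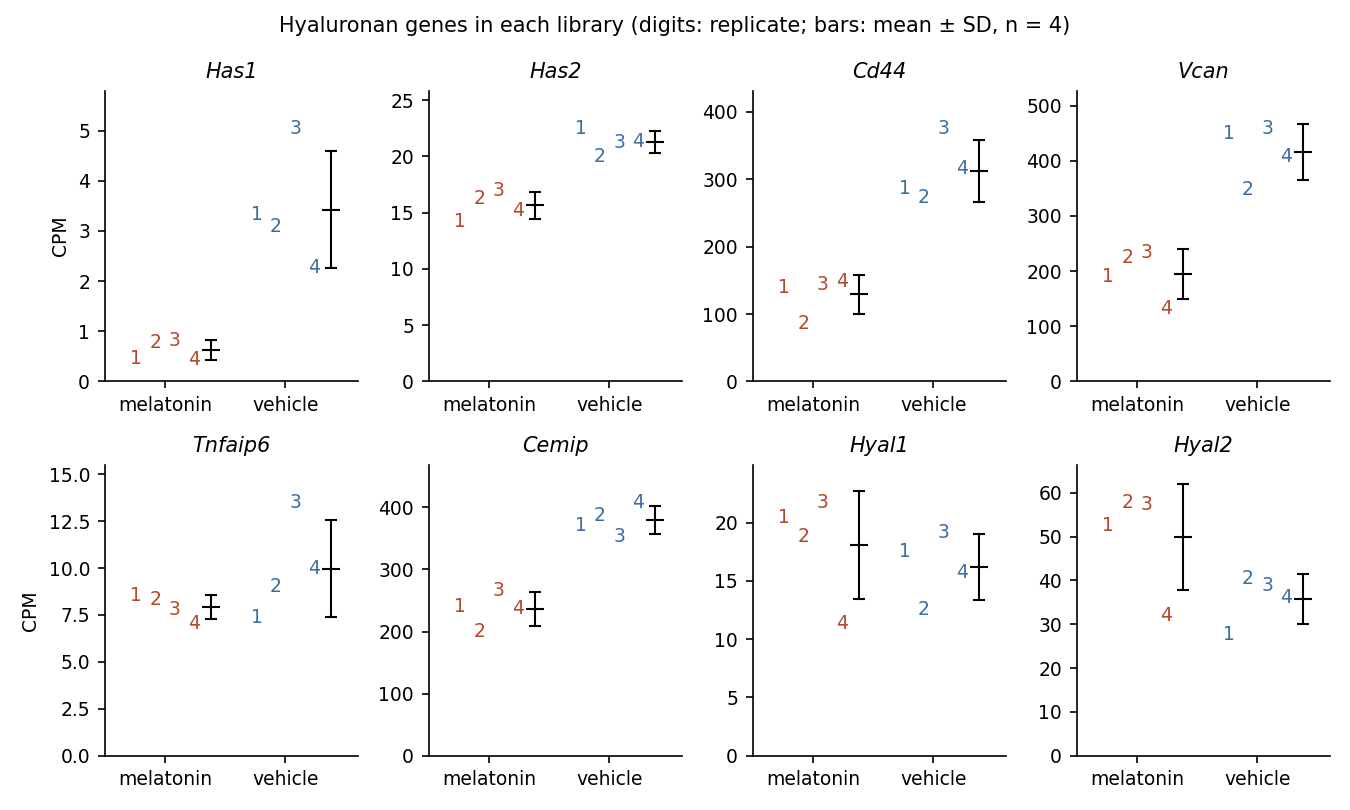
Level in CPM, the gene's count relative to the TMM-scaled library total, of each hyaluronan gene in each library, with melatonin on the left and vehicle on the right of each panel; the digit is the replicate and the bars are the group mean ± SD (n = 4). Has1, Has2, Cd44, Vcan and Cemip have all 4 melatonin libraries below all 4 vehicle libraries, while Tnfaip6, Hyal1 and Hyal2 overlap.

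The libraries held 35584931 to 49769873 counts with melatonin and 45682034 to 52401153 with vehicle. Melatonin and vehicle lay apart on principal component 1 (61.4% of variance). Melatonin replicate 4 stood apart from its group on component 2 (13.3%), at -37.7 where replicates 1 to 3 had 13.8 to 15.3. Mitochondrial genes took 2.09% to 2.44% of counts with melatonin and 1.05% to 1.3% with vehicle. Of the markers of the labelled cell type, all 9 FAP genes were in the table, and Pdgfra, the receptor gene used to define FAPs, stood at 465 ± 74.0 CPM with melatonin and 570 ± 52.2 CPM with vehicle (SD, n = 4 each). The summed FAP markers stood at 7486 to 8415 CPM with melatonin and 14940 to 17580 CPM with vehicle. Most of that sum was the collagen gene Col1a1, at 6658 CPM with melatonin and 13770 CPM with vehicle (means). Of the 9 FAP markers, 6 were lower and none higher, where 18.5% of all tested genes were lower and 18.1% higher. Pdgfra, Cd34 and Pi16 did not pass (edgeR adjusted p = 0.0835, 0.0752 and 0.136). All 6 adipocyte markers rose, and their sum was 736 to 935 CPM with melatonin and 132 to 137 CPM with vehicle. Macrophage markers, all 10 of them in the table, summed to 339 to 624 CPM with melatonin and 522 to 788 CPM with vehicle, and the lowest of these sums was that of melatonin replicate 4. Of the 9 macrophage markers tested, 1 rose and 2 fell. The summed endothelial markers were at 46.9 to 55.9 CPM with melatonin and 30.0 to 35.4 CPM with vehicle, but 1 of 6 passed, Tek, at 35.3 ± 3.61 CPM with melatonin and 17.1 ± 1.51 CPM with vehicle. The myogenic markers summed to 30.6 to 116 CPM with melatonin and 52.5 to 72.3 CPM with vehicle, and none of the 4 tested passed. Pax7 and Myf5, also on the myogenic list, were not in the table and are not part of that sum. Pericyte and smooth muscle markers overlapped between the groups (75.9 to 113 CPM with melatonin, 83.1 to 113 CPM with vehicle), with 1 of 5 higher and 1 lower. Tendon cell markers stood at 31.6, 27.7, 32.5 and 48.0 CPM in melatonin replicates 1 to 4, against 42.1 to 49.8 CPM with vehicle, so melatonin replicates 1 to 3 lay below every vehicle library and replicate 4 among them (1 of 3 fell). Schwann cell markers, of which 1 of 2 tested rose, were at 11.0 to 14.6 CPM with melatonin and 7.92 to 10.6 CPM with vehicle. No marker in the table was at 0 in all libraries, and the part of any of these cell types in the results below was not tested.

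Promoters of genes that fell are shown as a description only. A RefSeq table for GRCm38.p6 held 7 of the 8 genes, Has2 being the other, and the 250 bases before the annotated start are printed for the 4 of them that fell. Capitals mark matches to any of 8 short motifs on either strand, and every sequence reads 5′ to 3′ along the gene's own strand. The windows are chr17:17855189-17855438 for Has1, chr2:102901666-102901915 for Cd44, chr13:89742513-89742762 for Vcan and chr7:84086506-84086755 for Cemip, all on the minus strand.
Has1: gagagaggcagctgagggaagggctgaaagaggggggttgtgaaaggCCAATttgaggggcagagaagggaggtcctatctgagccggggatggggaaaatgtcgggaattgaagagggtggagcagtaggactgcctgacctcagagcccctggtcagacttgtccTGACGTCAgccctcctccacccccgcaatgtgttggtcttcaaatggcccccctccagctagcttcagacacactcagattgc
Cd44: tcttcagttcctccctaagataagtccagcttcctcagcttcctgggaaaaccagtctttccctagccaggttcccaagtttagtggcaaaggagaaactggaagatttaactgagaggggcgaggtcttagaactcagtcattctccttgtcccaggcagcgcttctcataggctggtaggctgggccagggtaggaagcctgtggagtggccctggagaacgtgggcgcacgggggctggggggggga
Vcan: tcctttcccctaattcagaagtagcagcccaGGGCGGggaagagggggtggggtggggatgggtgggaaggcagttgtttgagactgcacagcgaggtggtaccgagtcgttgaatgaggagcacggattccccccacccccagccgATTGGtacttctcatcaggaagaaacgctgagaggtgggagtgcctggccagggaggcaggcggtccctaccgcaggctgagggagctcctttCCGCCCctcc
Cemip: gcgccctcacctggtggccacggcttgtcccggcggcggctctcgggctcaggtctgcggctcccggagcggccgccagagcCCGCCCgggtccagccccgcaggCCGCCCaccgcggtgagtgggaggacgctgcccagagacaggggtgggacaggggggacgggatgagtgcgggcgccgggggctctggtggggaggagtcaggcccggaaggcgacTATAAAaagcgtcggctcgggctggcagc
The Has1 window held a CCAAT box (CCAAT, present in 33.8% of 32851 promoter windows of this length) starting 203 bases before the start. It also held 2 overlapping CRE half-sites (TGACG, 17.8% of windows), on opposite strands, which begin 83 and 80 bases before it. The Vcan window held a CCAAT box on the opposite strand 103 bases before the start and GC boxes (GGGCGG, 32.7% of windows) at 219 and 10 bases. The Cemip window held GC boxes on the opposite strand at 168 and 145 bases and a TATA motif (TATAAA, 12.4% of windows) at 29 bases. The other motifs searched were AP-1 (TGANTCA, 6.75% of windows), NF-kB (by name, 7.25%), the E-box (CACGTG, 6.02%) and TEAD (GGAATG, 12.6%), and these letters were not in the 4 windows. The Cd44 window matched none of the 8 motifs, and no single motif was shared by all 4 genes. A match describes the letters only, and binding was not measured.

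Both synthase genes fell, Has1 far more than Has2. Has1 (ENSMUSG00000003665, GRCm38 chr17:17843323-17855205, minus strand) encodes a synthase that in fibroblasts is usually the less abundant one and that cytokines can induce. Its level was 0.465, 0.780, 0.821 and 0.429 CPM in melatonin replicates 1 to 4, against 3.32, 3.08, 5.04 and 2.27 CPM in vehicle replicates 1 to 4. These are 24, 33, 44 and 16 counts with melatonin and 165, 133, 230 and 113 counts with vehicle, so the gene was scarce but well above the floor of 3 counts in each library. The highest melatonin library lay below the lowest vehicle library by more than a factor of 2. Its log2 fold change was -2.44 ± 0.31 (SE; 95% interval -3.13 to -1.76; edgeR adjusted p = 1.98e-04).

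Has2 (ENSMUSG00000022367, chr15:56665627-56694539, minus strand) encodes the main synthase of fibroblasts. It stood at 14.2, 16.2, 17.0 and 15.2 CPM in melatonin replicates 1 to 4, against 22.5, 20.0, 21.2 and 21.4 CPM in vehicle replicates 1 to 4. The groups did not overlap and varied little within themselves, so that a change of -0.44 ± 0.083 on the log2 scale passed (95% interval -0.63 to -0.26; edgeR adjusted p = 0.00229). With library totals it was smaller, at -0.29 ± 0.091 (edgeR adjusted p = 0.0272). Has2os, the antisense transcript that shares 182 of the 4237 exon bases of Has2 on the opposite strand, was at 0.508 ± 0.140 CPM with melatonin and 0.741 ± 0.247 CPM with vehicle and did not pass (log2 fold change -0.53, edgeR adjusted p = 0.226). Since the use of strand in counting is not given, reads of the pair cannot be told apart, although Has2os was far less abundant. The remaining synthase gene Has3 was scarce in both groups, with 0.526 ± 0.259 CPM with melatonin and 0.507 ± 0.322 CPM with vehicle (SD, n = 4 each; edgeR adjusted p = 0.946).

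The ratio of Has1 to Has2 counts within a library, which does not depend on how libraries are scaled, was 0.0327, 0.0480, 0.0484 and 0.0283 with melatonin and 0.148, 0.154, 0.237 and 0.106 with vehicle. Every melatonin ratio lay below every vehicle ratio, a difference of -1.99 on the log2 scale or 3.98-fold. The exact two-sided permutation test over the 8 libraries gave p = 0.0286, the smallest that 70 splits allow, and 0.0857 after adjustment over the 3 gene ratios compared, so it did not pass. With 4 libraries a group no ratio could have passed alone after that adjustment.

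**Figure D2:**
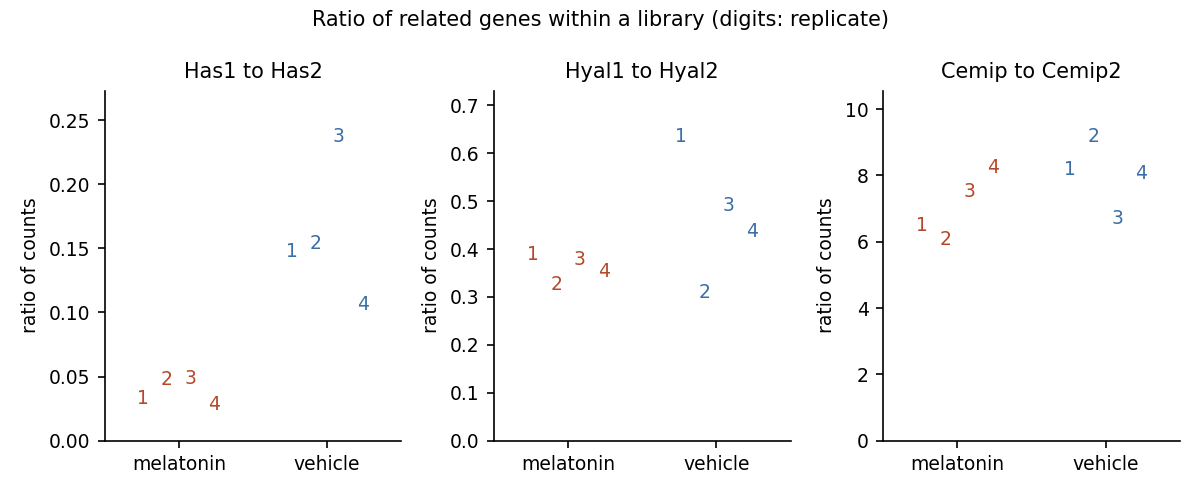
Ratio of counts of related genes in each library (y axis, linear, from 0), with melatonin left and vehicle right; digits are replicates. The Has1 to Has2 ratio lies at 0.0283 to 0.0484 with melatonin and 0.106 to 0.237 with vehicle, while the other ratios overlap.

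Among the binding genes, the receptor and the proteoglycan fell and TSG-6 did not pass. Cd44 (ENSMUSG00000005087, chr2:102811141-102901665, minus strand) encodes the main cell-surface receptor for hyaluronan, which many mesenchymal and blood cells carry. Its level was 139.9, 86.5, 143.6 and 148.5 CPM in melatonin replicates 1 to 4, against 286, 273, 375 and 316 CPM in vehicle replicates 1 to 4. Melatonin replicate 2 was the lowest library, and all melatonin libraries lay well below the vehicle ones. The log2 fold change was -1.27 ± 0.17 (95% interval -1.66 to -0.88; edgeR adjusted p = 4.62e-04), and without melatonin replicate 2 it was -1.11 ± 0.11 (edgeR adjusted p = 1.46e-04).

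Vcan (ENSMUSG00000021614, chr13:89655312-89742509, minus strand) encodes versican, a large chondroitin sulfate proteoglycan whose N-terminal domain binds hyaluronan. It stood at 190.2, 225, 233 and 133 CPM in melatonin replicates 1 to 4, against 449.65, 347, 459 and 408 CPM in vehicle replicates 1 to 4. The groups were clearly apart, and melatonin replicate 4 was the lowest library. Its log2 fold change was -1.09 ± 0.17 (95% interval -1.48 to -0.71; edgeR adjusted p = 9.94e-04), and without melatonin replicate 4 it was -0.94 ± 0.11 (edgeR adjusted p = 1.63e-04).

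Tnfaip6 (ENSMUSG00000053475, chr2:52038009-52056686, plus strand) encodes TSG-6, a secreted protein that moves heavy chains of the inter-alpha-trypsin inhibitor onto hyaluronan. Its level was 8.54, 8.32, 7.78 and 7.05 CPM in melatonin replicates 1 to 4, against 7.36, 9.03, 13.5 and 9.97 CPM in vehicle replicates 1 to 4. The groups overlapped, and the vehicle libraries were the more spread. The log2 fold change of -0.33 ± 0.17 did not pass (95% interval -0.71 to 0.05; edgeR adjusted p = 0.165). It ranged with the library left out, at -0.45 without vehicle replicate 1, the lowest vehicle library (edgeR adjusted p = 0.0543), and -0.15 without vehicle replicate 3, the highest (edgeR adjusted p = 0.447).

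Of the turnover genes, Cemip fell and the hyaluronidase genes did not pass. Cemip (ENSMUSG00000052353, chr7:83932857-84086502, minus strand) encodes a protein that human skin fibroblasts need to depolymerize hyaluronan. It stood at 240.4, 200.3, 266 and 237 CPM in melatonin replicates 1 to 4, against 371, 387, 354 and 407.5 CPM in vehicle replicates 1 to 4. The groups did not overlap, and both were tight. Its log2 fold change was -0.69 ± 0.090 (95% interval -0.89 to -0.48; edgeR adjusted p = 2.66e-04). Its relative Cemip2 (also called Tmem2), a membrane protein with hyaluronan-cutting activity in mouse, fell as well, with 33.55 ± 3.58 CPM with melatonin and 47.8 ± 4.86 CPM with vehicle (log2 fold change -0.51 ± 0.10, edgeR adjusted p = 0.00311). The ratio of Cemip to Cemip2 was 6.08 to 8.24 with melatonin and 6.69 to 9.18 with vehicle (exact permutation p = 0.229, 0.229 adjusted).

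Hyal1 (ENSMUSG00000010051, chr9:107576927-107581710, plus strand) encodes the lysosomal hyaluronidase. It had 20.4, 18.8, 21.7 and 11.3 CPM in melatonin replicates 1 to 4, against 17.5, 12.5, 19.1 and 15.7 CPM in vehicle replicates 1 to 4. The libraries were intermingled, with melatonin replicate 4 the lowest of all, and the log2 fold change was 0.16 ± 0.20 (95% interval -0.30 to 0.61; edgeR adjusted p = 0.581). In the annotation 1920 of its 3777 exon bases are shared with Naa80 on the same strand, so its reads are uncertain. Naa80, which encodes the acetyltransferase of actin's N-terminus, rose, with 45.3 ± 8.02 CPM with melatonin and 31.5 ± 2.77 CPM with vehicle (log2 fold change 0.52 ± 0.13, edgeR adjusted p = 0.00923).

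Hyal2 (ENSMUSG00000010047, chr9:107567945-107572779, plus strand), which lies 4147 bases before Hyal1, encodes a membrane-anchored hyaluronidase that starts the breakdown of long chains. It had 52.5, 57.7, 57.3 and 32.1 CPM in melatonin replicates 1 to 4, against 27.6, 40.4, 38.9 and 36.0 CPM in vehicle replicates 1 to 4. Melatonin replicates 1 to 3 lay above every vehicle library, and melatonin replicate 4 lay among them. The log2 fold change was 0.48 ± 0.19 (95% interval 0.05 to 0.91) and missed the threshold (edgeR adjusted p = 0.0791). Without melatonin replicate 4 it was 0.65 ± 0.12 (edgeR adjusted p = 0.00172). With all libraries kept, Hyal2 also passed with DESeq2 (adjusted p = 0.0423) and with library totals (edgeR adjusted p = 0.0207). The call thus depends on this library and on the tool and scaling. The ratio of Hyal1 to Hyal2 was 0.326 to 0.389 with melatonin and 0.310 to 0.636 with vehicle (exact permutation p = 0.2, 0.229 adjusted), and in melatonin replicate 4 it was 0.354, within the range of the other melatonin libraries.

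Melatonin replicate 4 was below the mean of the other melatonin libraries by 44.2% for Hyal1, 42.6% for Hyal2, 38.7% for Vcan, 37.7% for Has1, 14.1% for Tnfaip6 and 3.98% for Has2. It was above that mean by 20.4% for Cd44 and 0.689% for Cemip. For Cd44 the mean is lowered by melatonin replicate 2 at 86.5 CPM. Replicate 4, at 148.5 CPM, was close to replicates 1 and 3 at 139.9 and 143.6 CPM. In melatonin replicate 4 the summed macrophage markers stood at 339 CPM, against 581 to 624 CPM in the other melatonin libraries, and the myogenic markers at 30.6 CPM, the lowest of all 8 libraries. Its tendon cell markers went the other way, at 48.0 CPM against 27.7 to 32.5 CPM in the other melatonin libraries, and ribosomal protein genes took 5.73% of its counts against 4.18% to 4.42%. The part of these cells and of the ribosomal share in the values of melatonin replicate 4 was not tested.

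**Figure D3:**
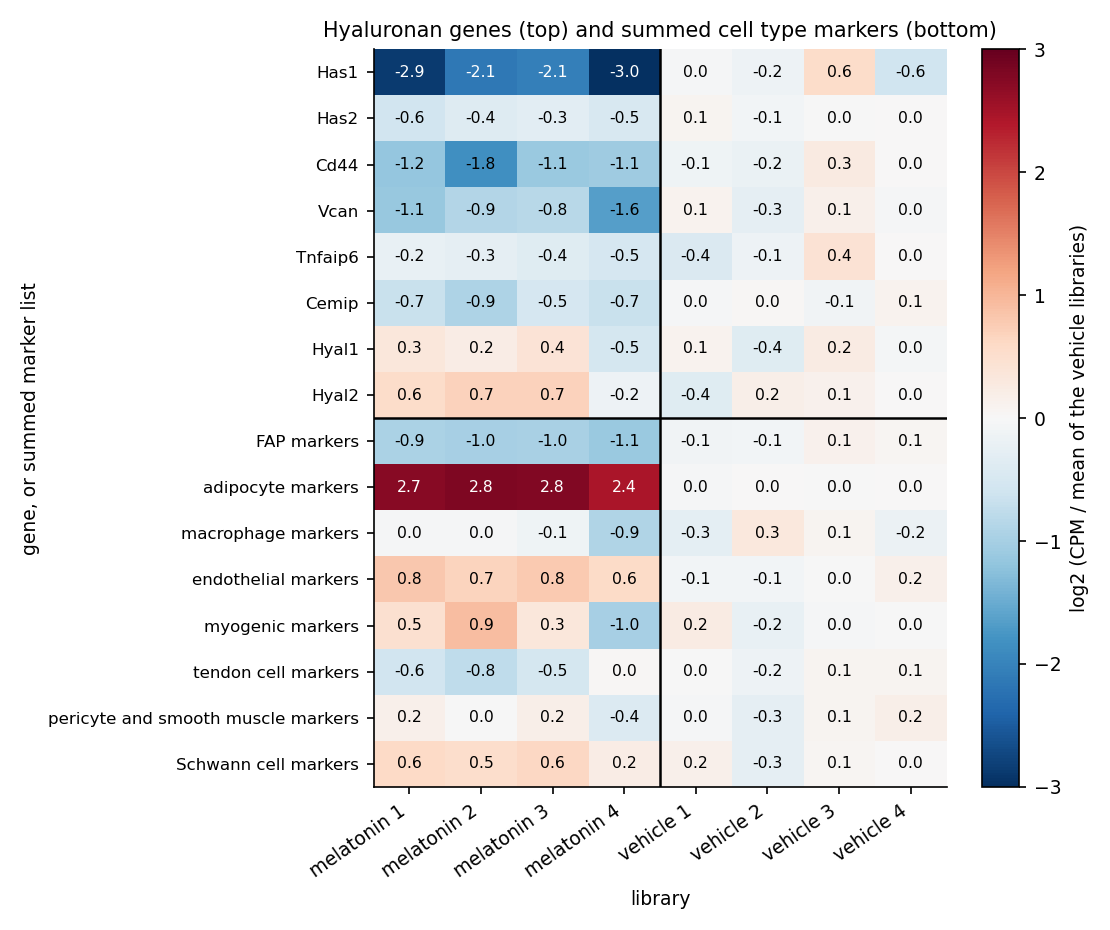
Log2 level in each library of each hyaluronan gene (rows above the line) and each summed cell type marker list (rows below the line). Levels are relative to the row's own vehicle mean, with the 4 melatonin libraries left and the 4 vehicle libraries right. Red is above and blue below that mean. Has1, Cd44, Vcan, Cemip, Has2 and Tnfaip6 are below it in all melatonin libraries, though Tnfaip6 did not pass. Hyal2 is above its vehicle mean in melatonin replicates 1 to 3 and not in replicate 4.

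Levels of different genes were compared per length, as CPM per kilobase of merged exons. With melatonin, Cemip (19.3 ± 2.23), Cd44 (19.1 ± 4.28), Hyal2 (15.15 ± 3.68) and Vcan (13.5 ± 3.16) led, and their libraries overlapped except that every Cemip value (16.4 to 21.8) lay above every Vcan value (9.16 to 16.1). Hyal1 (4.79 ± 1.23), Tnfaip6 (4.63 ± 0.386) and Has2 (3.70 ± 0.286) followed, and Has1 was last at 0.138 ± 0.0455. With vehicle, Cd44 led at 46.1 ± 6.74, above Cemip (31.1 ± 1.88) and Vcan (28.8 ± 3.51), which overlapped. Hyal2 (10.9 ± 1.74) came next, then Tnfaip6 (5.82 ± 1.51), Has2 (5.02 ± 0.238) and Hyal1 (4.30 ± 0.750), which overlapped, and Has1 was last at 0.758 ± 0.258 (SD, n = 4 for all of these). With vehicle Cd44 was above Cemip in every library on this scale. With melatonin it was above in replicates 1 and 4 and below in replicates 2 and 3. That order depends on the length used. Cemip has 12232 merged exon bases but 7111 in its longest transcript, and Cd44 has 6776 and 5614. Per longest transcript, Cd44 was not above Cemip in every vehicle library and lay below it in every melatonin library. Cemip and Vcan then no longer overlapped with vehicle. Hyal2 stood beside Vcan with melatonin but well below it with vehicle. On this scale Has2 was the main synthase transcript in both groups, since Has3 was at 0.0824 with melatonin and 0.0795 with vehicle.

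**Figure D4:**
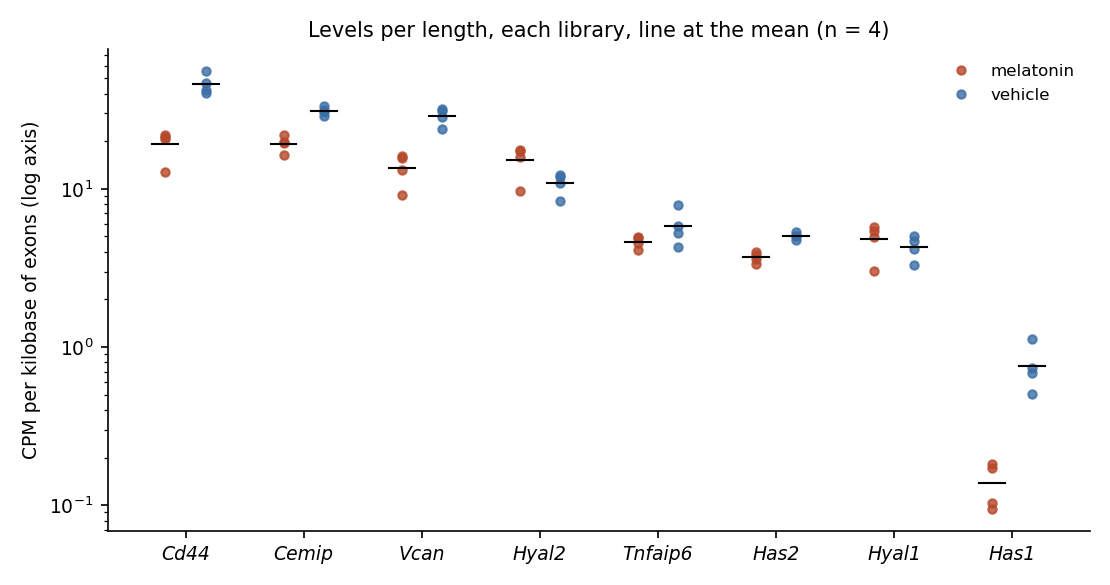
CPM per kilobase of merged exons (log axis) for the 8 hyaluronan genes, 1 point per library and a line at the mean of 4, with melatonin left of vehicle for each gene. Cd44, Cemip and Vcan are the highest with vehicle, at 46.1, 31.1 and 28.8, Has1 is the lowest in both groups, and Hyal2 is the one high gene whose mean is higher with melatonin.

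Precursor supply genes, which make UDP-glucuronic acid and UDP-N-acetylglucosamine, were more often lower than higher. Of 12 listed genes, all tested, 6 fell and 3 rose (median log2 fold change -0.32). Among all tested genes 18.5% fell and 18.1% rose. Ugdh, whose enzyme makes UDP-glucuronic acid, fell to 144 ± 5.12 CPM with melatonin, against 192.5 ± 15.7 CPM with vehicle (log2 fold change -0.42 ± 0.071, edgeR adjusted p = 0.00131). Larger falls were those of Gpi1, the glucose phosphate isomerase gene, at 424 ± 34.2 CPM with melatonin and 726 ± 25.5 CPM with vehicle (-0.78 ± 0.071), and of Pgm1, a phosphoglucomutase gene, at 227 ± 14.4 CPM with melatonin and 374 ± 8.16 CPM with vehicle (-0.72 ± 0.063). Both enzymes also serve other sugar pathways, glycolysis and glycogen among them. Gfpt2, encoding an enzyme of the first step of hexosamine synthesis, stood at 76.5 ± 5.63 CPM with melatonin and 123 ± 3.25 CPM with vehicle (-0.68 ± 0.066). The genes that rose were Uap1l1 (0.59 ± 0.082), Nagk (0.40 ± 0.091) and Pgm2 (0.21 ± 0.074, edgeR adjusted p = 0.0455). Ugp2, Gnpnat1 and Uap1 did not pass (edgeR adjusted p = 0.458, 0.220 and 0.0878).

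The list of other synthases and degrading enzymes had 6 of 10 genes tested. Of these 2 rose and 1, Cemip2, fell (median log2 fold change -0.06), where 18.1% of all tested genes rose and 18.5% fell. Hexa, which encodes part of a lysosomal enzyme that trims sugars from the ends of glycans, rose and had 783 ± 51.4 CPM with melatonin and 547.5 ± 26.8 CPM with vehicle (log2 fold change 0.52 ± 0.069, edgeR adjusted p = 2.97e-04). Hyal3, whose exons overlap those of Hyal1 by 159 bases, was at 0.420 ± 0.106 CPM with melatonin and 0.498 ± 0.206 CPM with vehicle and did not pass (edgeR adjusted p = 0.651). Hyal4, Hyal5, Hyal6 and Spam1 were not analysed here.

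Of 21 other hyaluronan-binding proteins, 12 had enough counts to be tested, 4 fell and 1 rose (median log2 fold change -0.35). For all tested genes the shares were 18.5% lower and 18.1% higher. Itih5, encoding a heavy chain of the inter-alpha-trypsin inhibitor family, had 2.54 ± 0.491 CPM with melatonin and 19.3 ± 2.38 CPM with vehicle (log2 fold change -2.92 ± 0.15), a larger estimate than that of Has1, although the 95% intervals overlap. Itih2, which encodes another heavy chain, had 5.74 ± 0.640 CPM with melatonin and 13.7 ± 1.34 CPM with vehicle (-1.25 ± 0.12). Ptx3, whose product pentraxin 3 binds heavy chains and TSG-6 in the hyaluronan matrix around the mouse oocyte, had 1768, 1659, 1749 and 1823.5 CPM in melatonin replicates 1 to 4, against 3987, 4089.5, 5308 and 4090 CPM in vehicle replicates 1 to 4. The groups were far apart, with vehicle replicate 3 above its fellows (-1.32 ± 0.098, edgeR adjusted p = 8e-06). Layn, encoding the receptor layilin, fell to 59.9 ± 2.89 CPM with melatonin, against 73.7 ± 2.10 CPM with vehicle (edgeR adjusted p = 0.00340). The gene that rose was Hmmr, encoding the receptor RHAMM, which also acts at the mitotic spindle, with 10.75 ± 1.13 CPM with melatonin and 8.38 ± 1.05 CPM with vehicle (edgeR adjusted p = 0.0400). That call was lost without melatonin replicate 2 or 3 and without vehicle replicate 2, 3 or 4. Hapln1, Acan, Ncan, Itih3, Itih4 and Ambp had too few counts to be tested, and Hapln2, Habp2 and Itih1 were not analysed here.

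Versican's processing enzymes and partners fell in 8 of 11 tested genes, and 1 rose (median log2 fold change -0.57). By comparison, 18.5% of all tested genes fell and 18.1% rose. Adamts1, a versican-cleaving protease gene, had 220.5 ± 39.6 CPM with melatonin and 538 ± 18.8 CPM with vehicle (log2 fold change -1.29 ± 0.12). Tnc, whose product tenascin C is a matrix glycoprotein of remodelling tissue, had 320.4 ± 33.1 CPM with melatonin and 679 ± 77.5 CPM with vehicle (-1.08 ± 0.10). Against these, Adamts15, another protease gene of the family, rose to 80.5 ± 12.5 CPM with melatonin, against 25.7 ± 4.51 CPM with vehicle (1.65 ± 0.15, edgeR adjusted p = 2.9e-05).

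Chondroitin sulfate chain synthesis puts the sugar chains on versican and other proteoglycans. Over all tested genes, 18.1% were higher and 18.5% lower. In this list 2 of 16 tested genes were higher, 2 lower and 12 did not pass (median log2 fold change -0.02). The number higher depended on scaling, with 6 higher and 2 lower by library totals and 4 higher and 2 lower by upper quartile factors. Csgalnact1, which starts the chains, had 110.1 ± 4.75 CPM with melatonin and 181.5 ± 4.01 CPM with vehicle (-0.72 ± 0.056), and the 4-O-sulfotransferase gene Chst11 had 33.0 ± 2.58 CPM with melatonin and 62.2 ± 4.49 CPM with vehicle (-0.91 ± 0.081). Chst15, which adds a further sulfate, rose to 38.7 ± 3.60 CPM with melatonin, against 22.8 ± 2.93 CPM with vehicle (0.77 ± 0.11), as did Chsy1, for a chain-extending enzyme, with 129.7 ± 5.44 CPM with melatonin and 94.5 ± 6.26 CPM with vehicle (0.46 ± 0.066). Chst13 had too few counts to be tested.

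Of 10 genes for the shedding, splicing and cytoskeletal anchoring of CD44, 9 were tested, 2 fell and 1 rose (median log2 fold change 0.00 to 2 decimals). Across all tested genes 18.5% fell and 18.1% rose. Msn, encoding moesin, which ties CD44 to actin, had 331 ± 10.4 CPM with melatonin and 630.0 ± 39.0 CPM with vehicle (-0.93 ± 0.065, edgeR adjusted p = 6e-06). Nf2, encoding merlin, rose slightly, with 81.8 ± 2.80 CPM with melatonin and 71.95 ± 1.70 CPM with vehicle (0.19 ± 0.055, edgeR adjusted p = 0.0251), a call lost without vehicle replicate 1, 2 or 4 (edgeR adjusted p = 0.0501, 0.0576 and 0.0744). Esrp2, a splicing regulator of CD44 known from epithelia, fell at very low counts (0.289 ± 0.185 CPM with melatonin, 0.791 ± 0.261 CPM with vehicle, edgeR adjusted p = 0.0339), a call lost without melatonin replicate 2 or 3 or vehicle replicate 1 or 4 (edgeR adjusted p = 0.0690, 0.0898, 0.0999 and 0.0770). Esrp1 was not analysed here. The shedding enzyme genes Adam10, Adam17 and Mmp14 did not pass (edgeR adjusted p = 0.310, 0.404 and 0.0618).

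**Figure D5:**
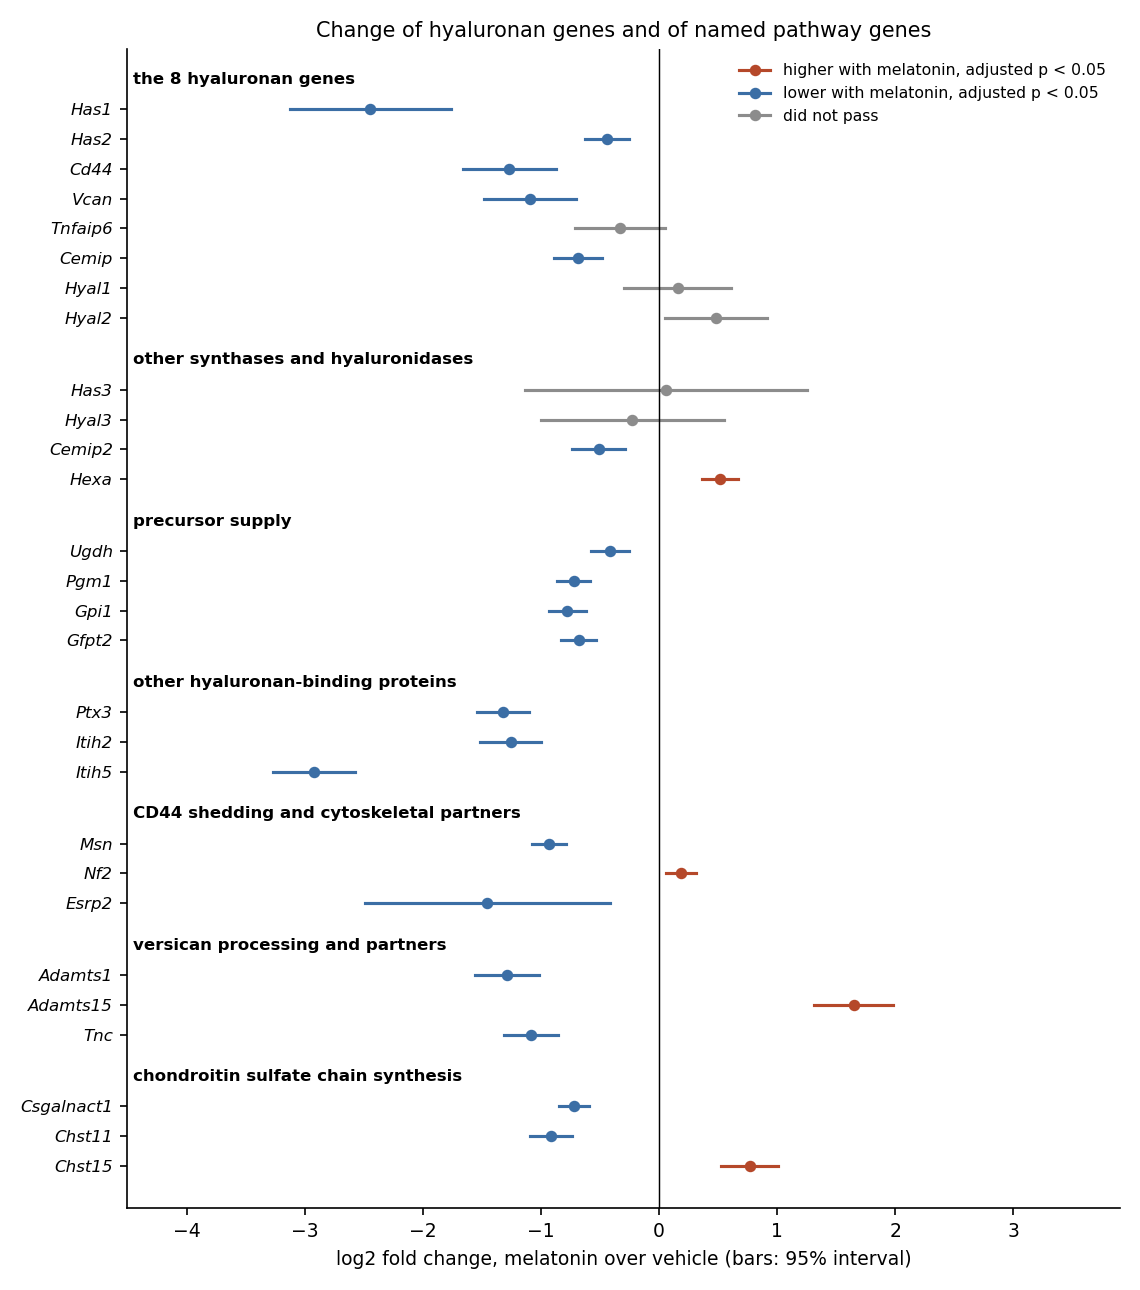
Log2 fold change, melatonin over vehicle, of the 8 hyaluronan genes and of named genes from the 6 pathway lists (x axis; points, with 95% intervals as bars). Red genes passed as higher with melatonin, blue as lower and grey did not pass. Among the genes shown, Itih5 at -2.92 and Has1 at -2.44 lie farthest left and Adamts15 at 1.65 farthest right. Tnr of the versican list, not shown, fell further, at -3.29 on 23 counts with melatonin and 239 with vehicle (summed over libraries).

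Genes with profiles over the 8 libraries most like those of Has1, Cemip and Cd44 were sought among 9268 genes of at least 10 CPM. These 3 were the members with the smallest p (edgeR). Likeness was the root mean square difference of log2 (CPM + 0.5), centred on each gene's vehicle mean. Nearest to Has1 were Slc15a3, a peptide transporter gene (0.18), Slc16a3, a lactate transporter gene (0.19), and Birc3, an inhibitor of apoptosis (0.21). The added 0.5 damps the change of Has1, which stood at 0.624 CPM with melatonin and 3.43 CPM with vehicle (means). Those 3 genes fell less than Has1, with log2 fold changes of -1.88, -1.81 and -1.95 against -2.44. Nearest to Cemip were Sgms2, for sphingomyelin synthase (0.086), Acot11, an acyl-CoA thioesterase gene (0.095), and Map3k14, for the kinase NIK (0.096). Nearest to Cd44 were Ltbp2, for a latent TGF-beta binding protein (0.11), Ripk2, a kinase gene (0.13), and Rffl, a ubiquitin ligase gene (0.19). Such likeness rests mostly on the shared difference between the groups.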

How the data were processed

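The authors deposited a table of raw counts, whole numbers for 20781 Ensembl genes in 8 columns, with no gene total under 11. The columns prefixed as control were read as vehicle, the other group in the labels. The submitters' processing notes name build mm10 with HISAT2 2.0, StringTie 1.3.3b, Trimmomatic 0.36, DESeq2 1.12.4, FastQC 0.11.2 and bedtools 2.26.0. The counting program, its annotation and its handling of strand are not stated there. GENCODE M21 gave symbols for 20720 IDs. Counts were tested with edgeR 4.0.16 (filterByExpr, TMM, robust quasi-likelihood F-test, group only), which kept 16565 genes, and p-values were adjusted by Benjamini-Hochberg (threshold 0.05). CPM uses TMM-scaled library sizes (TMM factors 1.05 to 1.08 for melatonin, 0.916 to 0.974 for vehicle). The standard error is the log2 fold change divided by the square root of F. Libraries within a group differed by more than sampling noise (chi-square per gene 20.7 to 65.1). Alternatives were DESeq2 1.42.0, limma-voom 3.58.1, other scalings and filters, a threshold of 0.01, leaving out 1 library at a time, and a replicate block. The gene members, lists and tests were chosen with earlier results of these data known. Named genes are all 8 hyaluronan genes, the 3 genes with the smallest p among those that passed in each list, genes too scarce to test, Has3, Hyal3, Cemip2, Ugdh, Has2os and 3 nearest profiles each for 3 genes. A gene that the rule would name is not reported here, although it stays in the counts of its list. Naa80, Layn, Hmmr, Chsy1, Adam10, Adam17, Mmp14, Tnr, Col1a1, Cd34 and Pi16 were added after their values were seen. So were Uap1l1, Nagk, Pgm2, Ugp2, Gnpnat1 and Uap1. The marker genes Pdgfra and Tek were also named outside that rule. The floor of 3 counts covers counting error only, since no molecular identifiers are described; the 95% intervals of fold changes also cover the spread between libraries.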

Additional observations from a re-analysis of the deposited data

Results flagged for a closer look

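3 values stood far from the rest of their own group of 4 libraries by Dixon's criterion at 95%, out of 66 groups of 4 examined, where chance flags about 1 in 20. Cd44 in melatonin replicate 2 was at 86.46 CPM, and the other melatonin libraries were at 139.9 to 148.5 CPM. Hyal3 in melatonin replicate 3 was at 0.5786 CPM, and the other melatonin libraries were at 0.3485 to 0.3782 CPM. Ptx3 in vehicle replicate 3 was at 5308 CPM, and the other vehicle libraries were at 3987 to 4090 CPM.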

How the results depend on the processing

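Has1, Has2, Cd44, Vcan and Cemip stayed lower and past the threshold, and Hyal1 and Tnfaip6 stayed short of it, in all 17 alternatives. Hyal2 passed with DESeq2 (log2 fold change 0.47), with library totals (0.64) and without melatonin replicate 4, its values with 1 library left out being 0.38 to 0.65; the number of the 8 genes called higher was then 1, and 0 to 1 with a library left out. Library totals moved the median of all genes to 0.17 and gave 5099 higher and 2237 lower genes, 6 higher in chondroitin sulfate synthesis and 3 higher in the CD44 list; upper quartile factors gave 4 and 2. At an adjusted p under 0.01, 1754 genes were higher, with 0 higher in the hyaluronan-binding and CD44 lists and 1 lower in the CD44 list. At least 1 CPM in 4 libraries gave 1 lower in the CD44 list, and, like DESeq2, 2 lower among other synthases and degrading enzymes. With 1 library left out, other synthases had 1 to 2 lower (2 without vehicle replicate 1), hyaluronan-binding 0 to 1 higher, and the CD44 list 0 to 2 higher (2 without melatonin replicate 4) and 1 to 2 lower. Has3 took values of -0.24 to 0.52 and Hyal3 of -0.41 to 0.0755, both scarce. With the longest transcript as length, Has2 ranked 7 and Hyal1 6 with vehicle, and Cd44 was no longer above Cemip in every vehicle library. With a library left out, Hyal1 and Tnfaip6 ranked 5 to 6 and Cd44 and Cemip 1 to 2 with melatonin. Same-numbered libraries did not deviate together (correlations 0.038, -0.071, -0.056 and 0.010). These values show no pairing by number, but with 4 libraries a group they cannot exclude one. With the replicate number as a block, Has2 was at -0.45 (edgeR adjusted p = 0.0165) and Nf2 lost its call (0.0888). The hyaluronan-binding and CD44 lists then had 0 higher. The causes of these shifts were not tested. Has1, Has3, Hyal3 and Esrp2 rest on few counts, which limits their precision.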

Other observations

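Chpf and Chpf2, which encode partners in chondroitin chain extension, varied widely within a group and were chosen after their values were seen. Chpf stood at 199, 511, 499.9 and 159.9 CPM in melatonin replicates 1 to 4, against 173, 175, 182 and 483 CPM in vehicle replicates 1 to 4, so that libraries of both groups lay at a high and a low level. Its neighbour Obsl1 was at 72.7 to 86.3 CPM with melatonin and 101 to 110 CPM with vehicle and did not share that split. Chpf2 was at 29.9 to 32.4 CPM with melatonin, and with vehicle at 43.1 to 52.3 CPM in 3 libraries and 167 CPM in replicate 2, so every melatonin library lay below every vehicle library (edgeR adjusted p = 0.0588). Hapln1, which encodes a link protein that joins hyaluronan to proteoglycans, had 10, 0, 8 and 4 counts with melatonin and 0, 0, 0 and 2 counts with vehicle, and was not tested.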
